A study of Mus musculus with 20 samples.

Results

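Genes of the fetal-like and regenerative state of the gut epithelium were followed in 20 mouse caecum tumours. The set had 5 listed members, Ly6a, Clu, Anxa1, Anxa3 and Il33, each to be read from the probe set that carries its symbol alone and has the highest mean over the arrays. Such a probe set named 3 of the 5, namely Clu, Anxa1 and Il33, out of 17097 genes named in all. Ly6a and Anxa3 were not analysed here. All 3 passed the filter on dim genes, which asked 2 arrays or more to exceed a log2 value of 4.16 (the 25th percentile of all values) and left 15556 genes to test.

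When the adult gut lining is injured or infected, surviving epithelial cells leave the Wnt-maintained stem cell programme for a state that shares genes with the fetal gut. Ly6a (Sca-1) and Clu are its usual surface and secreted markers, and Yap, a co-activator that works through the TEAD factors, and signals from the matrix and from TGF-beta are known to drive it. Clu encodes clusterin, a secreted chaperone that marks rare revival cells of the injured crypt. Anxa1 encodes annexin A1, a calcium- and membrane-binding protein that is released at wounds and acts on formyl peptide receptors. Il33 encodes a nuclear cytokine of barrier epithelium, fibroblasts and endothelium, released on cell damage and sensed by mast cells, type 2 lymphoid cells and regulatory T cells.

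The tumours grew in C57BL/6J mice from 5 mouse tumour organoid (MTO) lines, each with 2 control tumours and 2 from mice given galunisertib, a small molecule that blocks the kinase of the type I TGF-beta receptor. MTO68 and MTO93 were parental lines of the genotype labelled LAKTP, MTO140 was an LAKTP line of the type labelled LiM, MTO54 was a parental LAKP line, and MTO207 was parental and of genotype LAKT. These letters are not explained in the labels. In the published mouse model, lines with a T carry a lesion of the TGF-beta receptor gene Tgfbr2 in the tumour epithelium, made with an Lgr5-driven inducible Cre, while the host's stroma keeps its receptor. LAKP and LAKT were each present as 1 line, and each line was run as 1 array strip, so line, strip and, for these, genotype cannot be told apart. Galunisertib was given by gavage, 10 mg 2 times a day from day 11 until sacrifice at 5 weeks. MTO140 was injected as spheroids into the caecum wall, whereas the other 4 lines were first grown under the skin and then transplanted as pieces onto the caecum tip, so MTO140 differed from them in route as well as type. RNA came from whole tumour fragments on 1 array each, and fewer cells of a type and less RNA per cell cannot be told apart in such fragments.

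The values are deposited log2 values of probe sets, so a difference of 1 is a 2-fold difference. Of 15 epithelial markers, all measured, the keratin gene Krt8 was the highest at its lowest tumour, from 10.65 to 11.63, and Epcam ran from 9.65 to 11.59. The intestinal genes Cdx2 and Vil1 varied more, from 6.14 to 9.46 and from 5.29 to 9.89, and the mean of the 15 ran from 8.30 to 9.80. Array medians ran from 4.93 to 5.12 and array SDs from 1.46 to 1.83. The tumour MTO68 control replicate 2 stood apart from the others in several gene lists, a point made after the data were seen. It had the lowest mean of 20 over 17 wider fetal-like genes (6.82, with a median tumour at 7.84), over 16 Yap pathway genes (5.73 against 6.17) and over 10 other annexins (6.83 against 7.69), the highest T cell marker mean (6.34 against 5.86), and the next to highest stem cell marker mean (7.83 against 7.05). It was also the next to lowest for epithelial (8.42), fibroblast (7.12) and endothelial markers (5.49). For smooth muscle, neutrophil and mast cell markers it ranked 7, 11 and 12 from the lowest of 20. Its array SD was 1.47, against 1.76 to 1.82 on the other MTO68 arrays and 1.46 on both MTO207 controls. Many of the results that it moved by more than 1.5 times or across a threshold are given with and without it. Counts over gene lists are not all given without it.

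The promoters of Anxa1 and Il33 are shown because these 2 analysed members have an entry in the promoter table used. TEAD motifs are marked because the fetal-like state is tied to TEAD factors in the literature. The 250 bases before each RefSeq start site in GRCm38.p6 are printed 5′ to 3′ on the gene's strand, with capitals at the TEAD core GGAATG or its reverse complement CATTCC. Clu has no entry in the promoter table used.
Anxa1, chr19:20390672-20390921, minus strand: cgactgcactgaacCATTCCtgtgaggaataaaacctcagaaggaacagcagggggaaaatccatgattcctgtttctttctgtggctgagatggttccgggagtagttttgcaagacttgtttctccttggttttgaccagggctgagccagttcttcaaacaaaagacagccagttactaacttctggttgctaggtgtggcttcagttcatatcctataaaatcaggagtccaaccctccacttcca
Il33, upstream start, chr19:29924863-29925112, plus strand: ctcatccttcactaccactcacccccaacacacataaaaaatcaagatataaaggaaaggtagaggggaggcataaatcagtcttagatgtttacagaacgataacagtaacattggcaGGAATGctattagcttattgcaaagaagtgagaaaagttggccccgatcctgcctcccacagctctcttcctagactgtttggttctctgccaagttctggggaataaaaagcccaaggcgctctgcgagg
Il33, downstream start, chr19:29945540-29945789, plus strand: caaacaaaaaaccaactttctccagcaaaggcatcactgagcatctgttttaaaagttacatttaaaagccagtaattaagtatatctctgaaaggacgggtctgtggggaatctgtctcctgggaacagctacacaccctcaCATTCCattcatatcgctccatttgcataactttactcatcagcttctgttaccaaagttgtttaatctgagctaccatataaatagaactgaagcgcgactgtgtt

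Each of the 3 windows held 1 copy of the TEAD core. The first base of the copy lay at -236 in Anxa1, at -131 at the upstream start of Il33 and at -107 at its downstream start, counted from the start site. Over all 32851 such windows of the table, 12.6% held the core on either strand. The AP-1 motif TGANTCA was in none of the 3 windows and in 6.75% of all windows. It was in 8 of 21 windows of the wider fetal-like genes and in 0 of 18 windows of the Yap genes. By gene, 3 of 16 wider fetal-like genes with a window held the core (Il1rn, Mal and Tinagl1), as did 10 of 14 genes of the Yap list, among them Ccn1, Ankrd1 and Crim1, and 14.4% of all 27025 genes. The Yap list consists of the pathway's own factors and genes named in the literature as its targets, so its share is a property of that choice. A match of 6 letters is a description of the sequence, and no binding was measured in these tumours.

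Clu lies on chromosome 14 at 65968483-65981548 (GRCm38.p6). It was among the strongest signals on the arrays, at 8.93 to 11.82 over the 20 tumours, above 94.3% to 99.9% of the probe sets of the same array. In MTO68 the control tumours read 10.49 and 11.03 and the treated tumours 8.93 and 9.34. These 2 treated tumours were the lowest of all 20, and they did not overlap with their controls. Groups of 2 tumours can lie apart by order alone, and the share of all genes without overlap was not counted. In MTO140 the controls read 11.33 and 10.88 and the treated tumours 10.41 and 10.37, again without overlap and again lower.

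The other 3 lines showed no such step. In MTO93 the controls read 11.77 and 11.13 and the treated tumours 11.82 and 11.73. In MTO54 they read 11.57 and 10.88 against 11.23 and 11.73. In MTO207, the line with the lowest controls, they read 10.15 and 10.72 against 10.62 and 10.96. Control and treated tumours overlapped in all 3 of these lines, with the treated mean above the control mean in each.

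**Figure D1:**
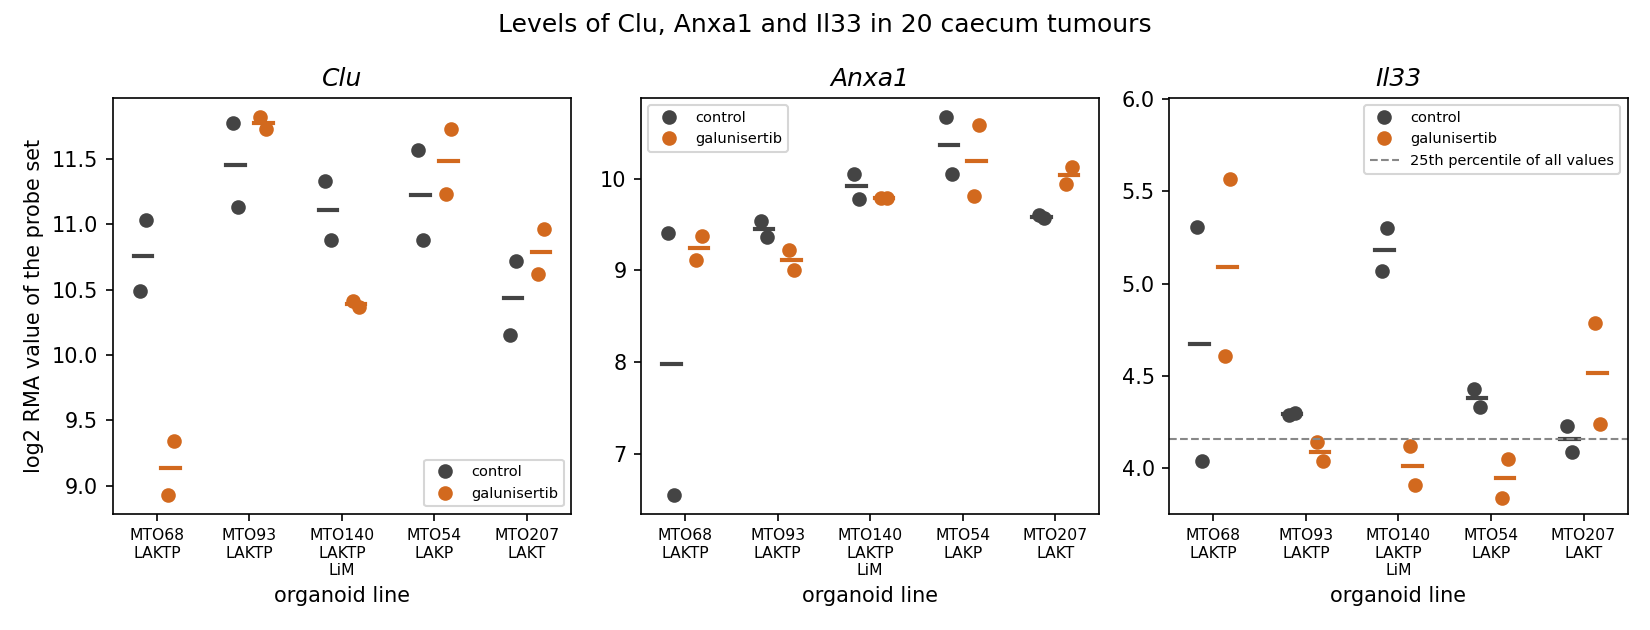
Log2 values of Clu, Anxa1 and Il33 (vertical axes, a separate scale per gene) in each tumour of the 5 lines (horizontal axis), control in grey and galunisertib in orange, with a short line at each group's mean of 2 tumours. The dashed line at 4.16 in the Il33 panel is the 25th percentile of all values. The treated MTO68 tumours are the lowest for Clu, and 1 MTO68 control lies far below all other tumours for Anxa1.

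Clu fell by 1.62 on the log2 scale (SE 0.31) in treated MTO68 tumours, a 3.08-fold lower mean, with an adjusted p of 0.0188 in limma, Benjamini-Hochberg over 15556 genes. In this line 2.01% of all genes tested passed the same threshold. The call did not hold without MTO68 control replicate 2, when the difference was -1.35 and the adjusted p 0.184 with 0.257% of genes called, nor without treated replicate 1, at -1.42 and 0.214. The direction and most of the size remained in every omission of 1 tumour, from -1.89 to -1.35. The spread used by the test comes from all 10 groups, because each group has 2 tumours.

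In MTO140 the difference for Clu was -0.72 (SE 0.31), with an unadjusted p of 0.0351 and an adjusted p of 1 in limma. In that line 0.00643% of genes passed the adjusted threshold and 3.63% the unadjusted one. The differences were 0.33 in MTO93, 0.26 in MTO54 and 0.36 in MTO207, with adjusted p-values from 0.704 to 1 in limma. Averaged over the 3 LAKTP lines, Clu differed by -0.67 (SE 0.18), unadjusted p 0.00199 and adjusted p 0.211 in limma, beside 0.00643% of all genes called and 9.51% at an unadjusted p under 0.05. That mean covers lines of opposite sign, since MTO68 and MTO140 were lower and MTO93 was not.

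Whether the response of Clu differed between lines was tested directly. The F test that the 5 within-line differences are equal gave an unadjusted p of 0.0013 and an adjusted p of 0.303 in limma, with 0.0643% of all genes called and 8.65% at an unadjusted p under 0.05. Without MTO68 control replicate 1, its adjusted p was 0.0236, and 2807 of 15556 genes then passed. Over the 5 lines, the mean difference of Clu was -0.28 (SE 0.22, adjusted p 0.725 in limma), beside 0% of genes called. An exact permutation of treatment within lines, two-sided, gave p = 0.266, where the smallest p possible is 0.000257. That mean was -0.14 without MTO68 control replicate 2, and its sign turned, to 0.06, when MTO68 was left out.

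**Figure D2:**
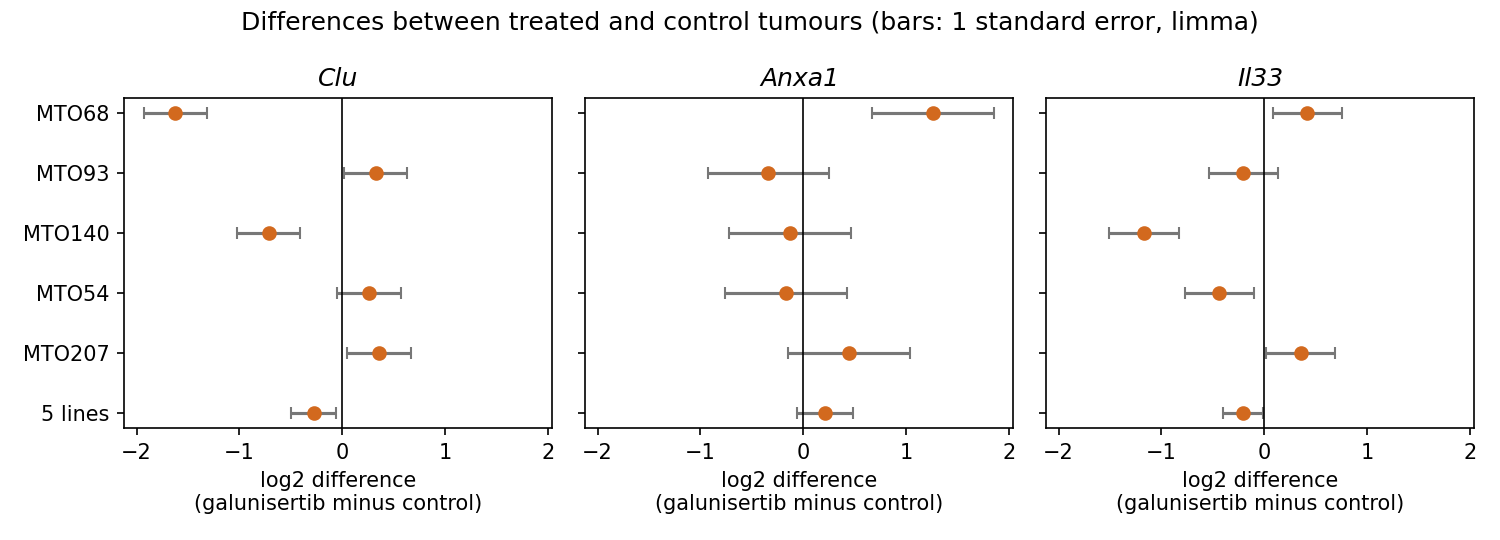
Difference between galunisertib and control means on the log2 scale (horizontal axis) for each line and over the 5 lines (vertical axis), with bars of 1 standard error from limma. Clu lies furthest from 0 in MTO68 at -1.62, Anxa1 in MTO68 at 1.26 and Il33 in MTO140 at -1.17.

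Clu was measured by 3 probe sets, which allowed the pattern to be read again on the same RNA. Their means over 20 tumours were 10.85, 10.6 and 9.09, and the brightest was used above. In MTO68 the second probe set read 10.30 and 10.81 in controls and 8.65 and 8.99 in treated tumours, and the third 8.88 and 9.01 against 7.17 and 7.48. Both showed treated tumours below controls, with differences of -1.73 and -1.62 and adjusted p-values of 0.0122 and 0.0852 in limma over all probe sets. In MTO140 the third probe set read 10.20 and 9.0 against 8.50 and 8.37. All 3 probe sets thus had the treated tumours of MTO68 and of MTO140 below their controls. In MTO93, MTO54 and MTO207 all 3 had the treated mean above the control mean, by 0.20 to 0.72 in the second and the third.

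**Figure D3:**
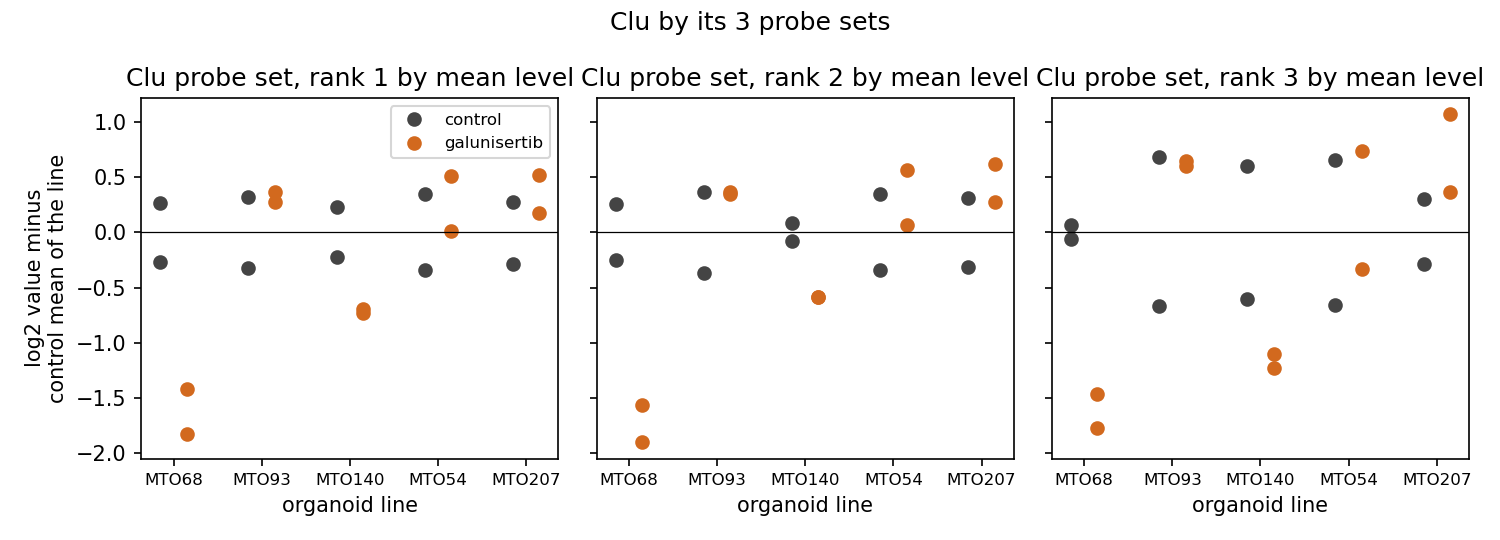
Each tumour's log2 value of Clu minus the control mean of its line (vertical axis) for the 5 lines (horizontal axis), in 3 panels for the 3 probe sets ordered by mean level. In each panel both treated tumours of MTO68 lie more than 1 unit below 0, and both of MTO140 lie below their controls.

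Fibroblast markers lay lower in treated tumours of these 2 lines and of others, though none was called in limma in any line. The mean of 11 fibroblast markers in MTO68 was 8.39 and 7.12 in controls and 6.83 and 7.41 in treated tumours, with 10 of the 11 genes lower and a median difference of -0.68 (11 of 11 and -1.09 without control replicate 2). In MTO140 it was 8.50 and 8.20 against 7.19 and 7.32, with 11 of 11 lower and a median of -0.99, and the 6 smooth muscle markers had a median of -1.40. The fibroblast mean also was lower in lines where Clu was not. It read 8.03 and 7.82 against 7.26 and 7.34 in MTO93 (11 of 11 genes lower) and 8.79 and 8.04 against 7.68 and 7.88 in MTO54 (10 of 11). In MTO207, 9 of 11 genes were lower, with a median of -0.18. The part of the fibroblast share in the Clu values was not tested.

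Known partners of clusterin were on the arrays as well. Lrp8, a lipoprotein receptor that binds clusterin, read 5.79 and 5.65 in MTO68 controls and 6.31 and 6.32 in treated tumours. It rose by 0.60 (SE 0.13, adjusted p 0.0397 in limma), and was not called without MTO68 control replicate 2 (0.53, adjusted p 0.269). Trem2, a myeloid receptor that binds clusterin among other ligands, differed by -0.26 over the 5 lines (SE 0.08, adjusted p 0.333). Vldlr, a relative of Lrp8, differed by 0.05 in MTO68 (SE 0.23) and by 0.12 over the 5 lines (SE 0.10). Of 8 partners and receptors of the 3 genes, limma called 1 in MTO68, where 2.01% of all genes were called, and 0 over the 5 lines, where 0% were. Over the 5 lines 2 of 8 had an unadjusted p under 0.05, beside 7.96% of all genes.

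Anxa1 lies on chromosome 19 at 20373434-20390671. It was high in nearly all tumours, from 9.0 to 10.67 in 19 of the 20, and 6.56 in MTO68 control replicate 2. The other MTO68 control read 9.41 and the treated tumours 9.11 and 9.38. In MTO93 the controls read 9.54 and 9.36 and the treated tumours 9.22 and 9.0, without overlap. The share of all genes without overlap was not counted. In MTO207 the treated tumours were the higher ones, at 9.94 and 10.13 against 9.60 and 9.57.

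In the remaining lines the groups of Anxa1 overlapped. MTO140 read 10.05 and 9.78 in controls and 9.79 and 9.79 in treated tumours. MTO54 had the highest levels, 10.67 and 10.05 in controls and 9.81 and 10.58 in treated tumours. Treated minus control, Anxa1 was at -0.34 in MTO93, at -0.13 in MTO140 and at -0.17 in MTO54, against 0.44 in MTO207, with adjusted p-values from 0.793 to 1 in limma.

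In MTO68 Anxa1 differed by 1.26 (SE 0.59, adjusted p 0.153 in limma), and by -0.16 without control replicate 2. Without control replicate 1 in its place, the difference was 2.68. Over the 5 lines it was 0.22 (SE 0.27, adjusted p 0.805 in limma, exact permutation p = 0.7), and -0.06 without that same tumour. The direction of the Anxa1 difference in MTO68 and over the lines was therefore set by 1 tumour. The F test of a difference between lines had an adjusted p of 0.642 in limma.

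Other annexins showed the same tumour as low. Anxa2, a close relative of Anxa1, read 7.52 in MTO68 control replicate 2 and from 9.40 to 10.77 elsewhere. Anxa7 read 6.71 there and from 7.38 to 9.33 elsewhere. None of the 10 other annexins tested passed an unadjusted p of 0.05 over the 5 lines, with a median difference of 0.08 (0.02 without that tumour). Fpr2, a receptor of annexin A1, read between 5.84 and 8.36 over the tumours. Its difference was not called in any comparison here, and its adjusted p in MTO207 was 0.654.

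Il33 lies on chromosome 19 at 29925113-29960718 and was dim on these arrays. Its values ran from 3.84 to 5.57, above the 25th percentile of 4.16 on 12 of 20 tumours, and never above 62.1% of an array's probe sets. In MTO140 it read 5.07 and 5.30 in controls and 4.12 and 3.91 in treated tumours. In MTO68 it read 5.31 and 4.04 against 4.61 and 5.57, a spread that covered nearly the whole range of the series.

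The other lines lay near the background level. MTO93 read 4.29 and 4.30 in controls against 4.14 and 4.04, and MTO54 read 4.43 and 4.33 against 3.84 and 4.05. In both the treated tumours lay below the controls. In MTO207 they lay above, at 4.79 and 4.24 against 4.23 and 4.09. Differences this near to background are compressed on an array, and values at that level carry little order.

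In MTO140 Il33 differed by -1.17 (SE 0.34), with both treated tumours below 4.16, so no fold is given. The difference had an unadjusted p of 0.00374 and an adjusted p of 0.909 in limma. It remained between -1.28 and -1.05 when any 1 tumour was left out. The differences were 0.42 in MTO68, -0.20 in MTO93, -0.44 in MTO54 and 0.35 in MTO207. In MTO68 it was -0.22 without control replicate 2 and 1.05 without control replicate 1. Over the 5 lines the difference was -0.21 (SE 0.19, adjusted p 0.75 in limma, exact permutation p = 0.338). It was -0.34 without MTO68 control replicate 2, and 0.03 without MTO140. The F test between lines had an unadjusted p of 0.0291 and an adjusted p of 0.563.

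Markers of cell types that carry Il33 in tissue lay lower in treated MTO140 tumours, with 0 called in limma. The mean of 12 endothelial markers there was 6.38 and 6.15 in controls and 5.89 and 5.77 in treated tumours, with 12 of 12 lower and a median of -0.35. The fibroblast means given above were lower in the same line. Endothelial markers were lower too in MTO93 (12 of 12, median -0.23) and MTO54 (11 of 12, median -0.40), where Il33 lay lower by less, and were split 6 and 6 in MTO207. In MTO68, 8 of 12 were lower (median -0.08) while Il33 differed by 0.42. Without control replicate 2 these were 9 of 12 (median -0.25) and -0.22. The part of either in the Il33 values was not tested. Of the genes through which IL-33 signals, Il1rap, the co-receptor, read 5.33 to 6.17 and Myd88, the adaptor, 4.95 to 5.73 over the 20 tumours. Mast cell markers, 8 genes of a cell type that senses IL-33, had means in MTO140 of 5.29 and 5.10 in controls and 5.92 and 5.81 in treated tumours, with 6 of 8 higher and 0 called in limma. In MTO93 7 of 8 were higher (median 0.22), in MTO54 6 of 8 (0.08) and in MTO207 1 of 8 (-0.24). In MTO68, 2 of the 8 lay above 0 and 6 below, with a median of -0.25 (4 and 4, and -0.01, without control replicate 2). There limma called 1 of the 8 with all tumours, beside 2.01% of all genes. One of these 8, Kit, a receptor also found on other cells, read 6.00 and 4.55 in MTO68 controls and 7.15 and 6.85 in treated tumours (1.73, adjusted p 0.0155 in limma, and 1.00, adjusted p 0.0508, without control replicate 2).

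Without treatment, the order of the lines differed from gene to gene. For Clu it was MTO93 (11.45 ± 0.46, SD, n = 2), MTO54 (11.22 ± 0.49), MTO140 (11.10 ± 0.32), MTO68 (10.76 ± 0.38) and MTO207 (10.44 ± 0.41). Each neighbouring pair differed by 0.35 or less, against a standard error of 0.31, and their tumours overlapped. For Anxa1 it was MTO54 (10.36 ± 0.43), MTO140 (9.92 ± 0.19), MTO207 (9.59 ± 0.03), MTO93 (9.45 ± 0.12) and MTO68 (7.98 ± 2.01). Steps between neighbours among the first 4 were 0.45 or less, under the standard error of 0.59, though the neighbours' tumours did not overlap. Groups of 2 tumours can lie apart by order alone, and the share of all genes doing so was not counted. MTO93 lay 1.46 above MTO68, and their tumours overlapped. For Il33 it was MTO140 (5.19 ± 0.16), MTO68 (4.67 ± 0.90), MTO54 (4.38 ± 0.07), MTO93 (4.29 ± 0.01) and MTO207 (4.16 ± 0.11), and only the step from MTO140 to MTO68 was larger than its standard error of 0.34.

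The F tests over the 5 control groups gave adjusted p-values of 0.123 for Clu, 0.0898 for Anxa1 and 0.147 for Il33 in limma, while 2.8% of all genes passed. Without MTO68 control replicate 2 they were 0.0435, 0.034 and 0.0117, and 47.1% of all genes then passed. Against the mean of the parental LAKTP lines, Anxa1 was at 1.65 in MTO54 (SE 0.51, unadjusted p 0.00624, adjusted p 0.161) and at 1.20 in MTO140 (adjusted p 0.166), and these were 0.93 and 0.49 without that tumour. The background was 1.33% of genes called for MTO54 (12.6% unadjusted) and 0.977% for MTO140. Il33 in MTO140 was at 0.70 (adjusted p 0.159), at 0.39 without that tumour and at 1.02 without the other MTO68 control. Clu in MTO207 was at -0.67 (SE 0.27, adjusted p 0.23), where 0.0386% of genes were called. Between the parental lines themselves, MTO68 minus MTO93, Anxa1 was at -1.46 (adjusted p 0.587) and Clu at -0.69 (adjusted p 0.658), with 0.251% of genes called, and Anxa1 was at -0.04 without that tumour. Il33 in MTO207 was at -0.64 with an adjusted p of 0.0455 without it, when 32.6% of genes were called, and at -0.32 (0.517) with it. None of the 3 genes was called in these contrasts of control tumours when no tumour was left out. With the control and treated group means of each line averaged, limma called Clu in MTO68 minus MTO93 at -1.67 (adjusted p 0.000249), Il33 in that contrast at 0.69 (0.0397) and Anxa1 in MTO54 minus parental LAKTP at 1.33 (0.0454). The treated MTO68 tumours, low in Clu, enter that first value. With group means averaged in this way, many other genes were called as well. In MTO68 minus MTO93 limma called 5192 genes, against 39 with control tumours alone. In MTO54 minus parental LAKTP it called 909, against 207.

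Pairs of the 3 genes were compared across the 20 tumours, 3 pairs in all. After the mean of each line was subtracted, Anxa1 and Il33 varied together, with Pearson r 0.62 (permutation p 0.00452, Benjamini-Hochberg 0.0136 over 3 pairs) and Spearman rho 0.48 (permutation p 0.0264). On this centred scale the lowest tumour for both was MTO68 control replicate 2. Without the 2 tumours farthest from the median of Anxa1, r was 0.42, and without that control alone it was 0.42 over 19 tumours, so part of its size rested on that tumour. Without subtracting line means, r was 0.11 (permutation p 0.64, Benjamini-Hochberg 0.64) and rho 0.06 (p 0.794).

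Within lines, the sign of r between Clu and each of the other genes turned with 1 tumour, MTO68 control replicate 2. Without it, r lay between 0.40 and 0.49 for all 3 pairs, with Anxa1 and Il33 at 0.42. Within lines its r with Anxa1 was -0.38 (permutation p 0.546, Benjamini-Hochberg 0.819), and 0.49 without MTO68 control replicate 2, where Clu was at 11.03 and Anxa1 at 6.56. Its r with Il33 was -0.04 (p 0.919, Benjamini-Hochberg 0.919), and 0.40 without that tumour. Across lines Clu and Il33 had r -0.40 (permutation p 0.0758, Benjamini-Hochberg 0.228) and rho -0.30 (p 0.199), and r was -0.17 without the 2 farthest tumours.

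**Figure D4:**
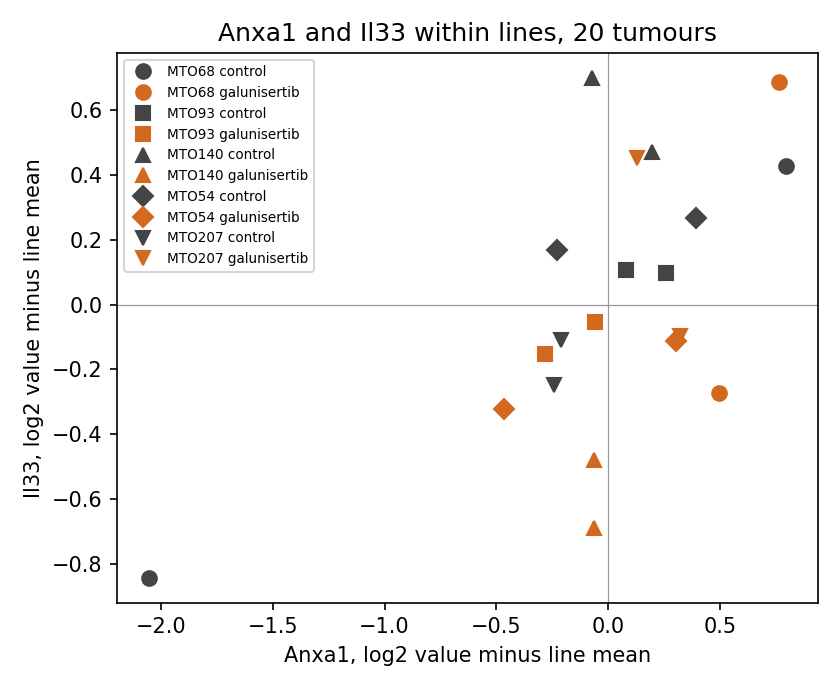
Anxa1 (horizontal axis) against Il33 (vertical axis), each as log2 value minus the mean of its line, for 20 tumours, with a symbol per line and orange for galunisertib. The single point at the lower left is MTO68 control replicate 2, and r was 0.62 with it and 0.42 without it.

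The genes with the most similar pattern were found by Pearson r over the 20 tumours after line means were subtracted, among all 15556 genes tested, and are given as a description. For Clu they were Fam234b (r 0.861), Palmd (0.831), which encodes palmdelphin, and Pde4d (0.798), a cAMP phosphodiesterase. Palmd read 5.39 and 5.81 in MTO68 controls and 4.86 and 4.90 in treated tumours. For Anxa1 they were Dusp4 (0.958), a phosphatase of MAP kinases, Rtn4 (0.958), a reticulon of the endoplasmic reticulum, and Anxa2 (0.952). All 3 were lowest in MTO68 control replicate 2, at 5.28, 6.73 and 7.52. For Il33 they were Lgals1 (0.887), the galectin-1 gene, Pcdhb16 (0.83), a protocadherin, and Kank3 (0.829). Lgals1 in MTO140 read 11.28 and 11.05 in controls and 10.23 and 10.14 in treated tumours.

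The wider fetal-like and regenerative list, with 17 genes tested, did not move one way under galunisertib. Over the 5 lines 10 genes were above 0 and 7 below, the median was 0.09 beside 0.00 for all genes, and limma called 0 of them, with 3 at an unadjusted p under 0.05. All genes had 7.96% at that level. Without MTO68 control replicate 2 the median was -0.05. Gja1, which encodes the gap junction protein connexin 43, differed by -0.50 (SE 0.15, adjusted p 0.3), and Gsto1, a glutathione transferase, by 0.39 (SE 0.12, adjusted p 0.32).

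Within lines the list gave 1 gene close to the threshold. Tinagl1, a secreted matrix protein, read 8.12 and 6.90 in MTO68 controls and 8.91 and 9.05 in treated tumours, or 1.47 higher (SE 0.36, adjusted p 0.0511 in limma), and 0.86 higher without control replicate 2 (adjusted p 0.514). In MTO140 Basp1, a membrane protein of growing neurons, read 9.54 and 8.73 in controls and 7.96 and 7.61 in treated tumours (-1.35, SE 0.44, adjusted p 0.965). In MTO54, 14 of 17 genes lay below 0, with a median of -0.29 and 0 called.

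**Figure D5:**
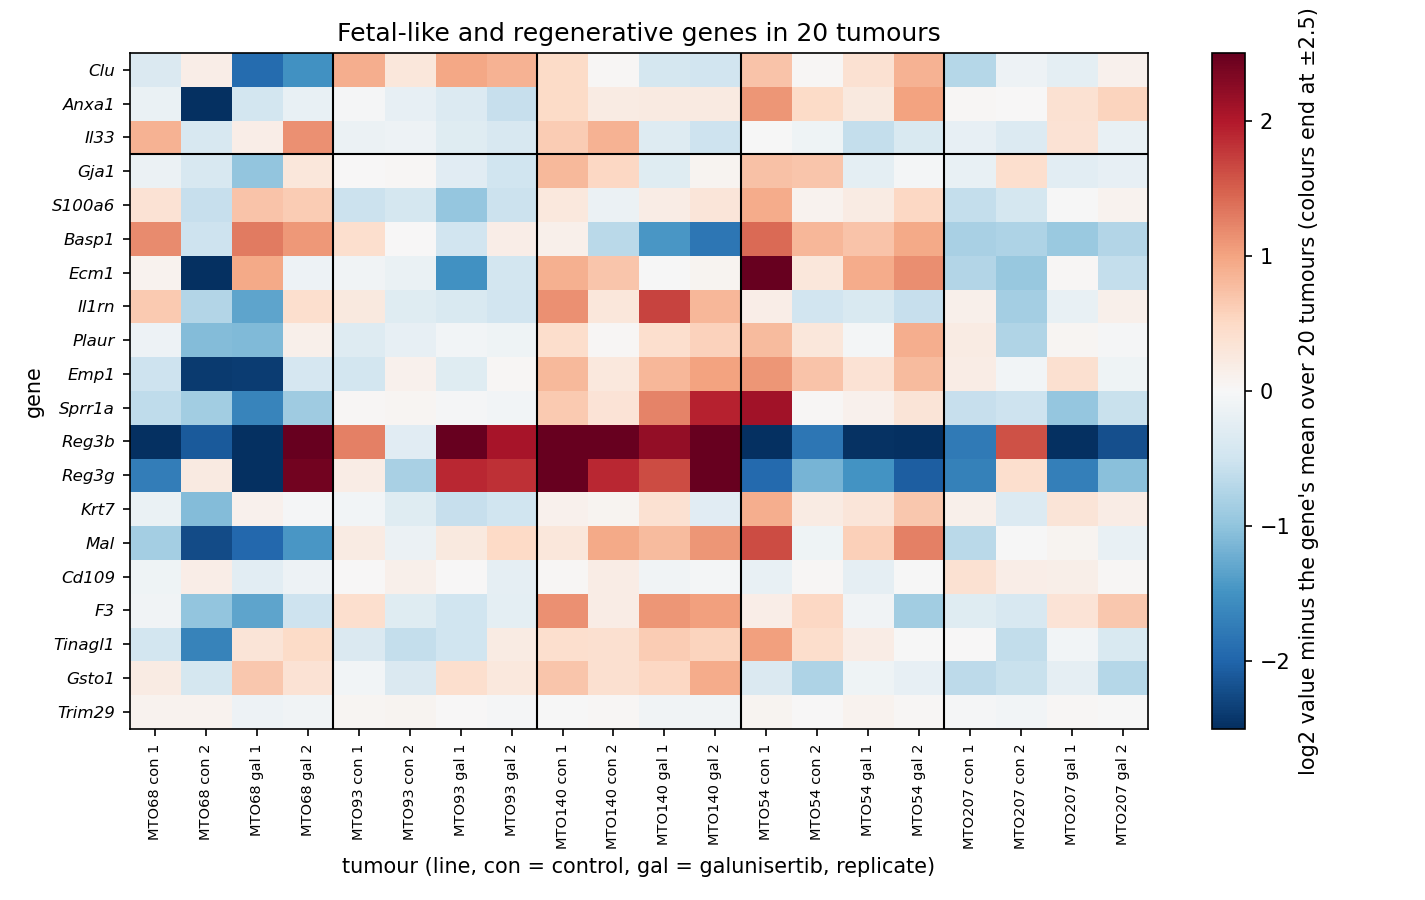
Log2 value minus the gene's mean over 20 tumours (colour, ending at ±2.5) for Clu, Anxa1 and Il33 above the horizontal line and 17 wider fetal-like genes below it, in tumours ordered by line (vertical lines), con for control and gal for galunisertib. MTO68 control 2 is blue in Anxa1, Ecm1, Emp1, Mal and Tinagl1, and Reg3b and Reg3g are red in MTO140.

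In 2 lines most of the list lay above the parental LAKTP controls. In MTO140 controls 15 of 17 genes lay above the parental mean, with a median of 0.79 and 0 called in limma, beside 0.977% of all genes. Other lists lay above there as well, with 14 of 14 colonocyte markers (median 1.66), 15 of 15 epithelial (0.62), 11 of 11 fibroblast (0.38) and 9 of 10 other annexins (0.49). Reg3b, an antimicrobial lectin of inflamed epithelium, read 10.53 and 9.52 there against 3.69 to 7.62 in the parental controls (4.62, SE 1.19, adjusted p 0.0712). In MTO54 controls 11 of 17 lay above, with a median of 0.84, and 1 gene of the list was called, beside 1.33% of all genes. That gene was Tinagl1, at 9.60 and 9.01 against 6.90 to 8.22 in the parental controls (1.49, SE 0.31, adjusted p 0.0321 in limma, and 0.0282 without MTO68 control replicate 2). In MTO54 fibroblast markers lay above in 11 of 11 and colonocyte markers below in 14 of 14 (medians 0.52 and -1.46). The medians of the fetal-like list without that tumour were 0.68 in MTO140 and 0.58 in MTO54.

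Genes of the Yap pathway, the driver named for this state, lay mostly below 0 under galunisertib over the 5 lines, in 13 of 16 cases, with a median of -0.12 and 0 called in limma. Of these, 4 of 16 passed an unadjusted p of 0.05, beside 7.96% of all genes. The lines did not all lean that way, since in MTO207 12 of 16 lay above 0 (median 0.12) and in MTO68 they split 8 and 8 (4 above and 12 below without control replicate 2). Ccn2, a matricellular protein that TGF-beta also induces, differed by -0.60 (SE 0.20, adjusted p 0.432), and Ccn1, its relative, by -0.59 (SE 0.22, adjusted p 0.487). In MTO68 Ccn2 read 7.10 and 5.74 in controls and 4.85 and 5.45 in treated tumours (-1.27, adjusted p 0.0874, and -1.95, adjusted p 0.0749, without control replicate 2). Averaged over the LAKTP lines Ccn2 differed by -0.98 (adjusted p 0.18), and without MTO68 control replicate 2 by -1.21 with an adjusted p of 0.0212 in limma, when 0.508% of genes were called.

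In control tumours Crim1, a transmembrane protein that binds bone morphogenetic proteins, read 7.99 and 7.82 in MTO140 and 6.09 to 7.01 in the parental LAKTP lines (1.28, SE 0.22, adjusted p 0.0176 in limma). In that contrast 0.977% of all genes were called, and in the same contrast for MTO54 1.33% were. Crim1 and Tead2, one of the factors Yap binds, were the 2 of 16 Yap genes that the F test over lines called, with adjusted p-values of 0.0288 and 0.0438. Anxa8 was the 1 of 10 other annexins called in that F test, with an adjusted p of 0.0286. Of all genes, 2.8% passed the same test. It read 9.82 and 7.82 in MTO54 controls, 8.15 and 8.05 in MTO93 and 6.30 and 5.91 in MTO68. Its contrast of MTO54 with the parental lines was 1.71 (SE 0.39, adjusted p 0.0447 in limma), and 0.0697 was the adjusted p without MTO68 control replicate 2.

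Of the Ly6 family, to which Ly6a belongs, 10 other members were tested, and limma called 0 over the 5 lines, with 2 at an unadjusted p under 0.05. Ly6d, a surface protein of squamous and progenitor cells, differed by 0.44 (SE 0.18, adjusted p 0.537), with its highest values in MTO140 at 7.91 and 8.04 in controls and 9.33 and 8.29 in treated tumours. Ly6i differed by -0.29 (SE 0.13, adjusted p 0.622). Intestinal stem cell markers, the programme that the fetal-like state replaces, had 7 of 10 below 0 with a median of -0.07. Epithelial and colonocyte markers lay above 0 in 15 of 15 and 14 of 14, with medians of 0.24 and 0.73, and fibroblast markers below 0 in 11 of 11, with a median of -0.60. Limma called 0 in each of these lists over the 5 lines, and 1, 6, 2 and 10 genes passed an unadjusted p of 0.05 in the stem cell, epithelial, colonocyte and fibroblast lists, beside 7.96% of all genes. In MTO68 alone 10 of 14 colonocyte markers lay below 0, and 13 of 14 without control replicate 2.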

How the data were processed

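The deposited values are log2 expression per probe set on 45141 probe sets and 20 arrays; per the submitters' processing notes they were made with RMA in affy, with versions, background correction and annotation not given in the sources used here. Of the probe sets, 28898 carried 1 gene symbol in the platform annotation, 551 several and 15692 none, and 28689 matched RefSeq by Entrez number. The brightest single-symbol probe set stood for each of 17097 genes. Genes above 4.16 on at least 2 arrays were tested with limma 3.58.1 in R 4.3.3, eBayes with trend, two-sided, Benjamini-Hochberg over 15556 genes, threshold 0.05. Effects within lines and line contrasts used a model of 10 group means with all 20 arrays. The mean over lines used line as a block. Each group has 2 tumours, described as biological replicates. The limma p-values of the group model rest on the spread between tumours of a group, pooled over the 10 groups. In the mean over lines, the spread also takes in differences in response between lines. No 2 arrays were identical, and the number of arrays limits the precision.

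The members and gene lists were chosen with earlier results of these data known, so counts over them are descriptions. The rule for named genes gave the members, up to 4 genes per list past the threshold by smallest p, otherwise the 2 of smallest p, and the 3 genes most like each member. Values of Anxa2, Anxa7, Fpr2, Vldlr, Il1rap, Myd88, Ly6d and Palmd beyond this rule, and the figures' genes, were chosen for their role or after their values were seen. The scripts were tested on simulated data. Alternatives were the filter, other probe sets of a gene, array centring, quantile normalization, eBayes without trend, array weights, line as a random block, all tumours for line contrasts, and leaving out each tumour or line.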

Additional observations from a re-analysis of the deposited data

Results flagged for a closer look

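Anxa1 in MTO68 control replicate 2 was 6.56, far below the nearest of the 10 control tumours at 9.36 and the nearest of its own line at 9.11. Clu in MTO93 control replicate 2 was 11.13, apart from the other 3 tumours of its line, of which the nearest was 11.73. Anxa1 in MTO140 control replicate 1 was 10.05, apart from the other 3, of which the nearest was 9.79. In all, 21 groups of values were tested in this way, each at a level where chance gives about 1 in 20, and 4 held such a tumour. The groups share tumours, and the Anxa1 value of 6.56 counts among the 4 more than once. Groups of a line also hold control and treated tumours together, so an excess over chance cannot be read from these counts.

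Anxa1 was lower in both treated tumours of MTO93 and higher in both of MTO207, but the limma F test of a difference between lines gave an adjusted p of 0.642 (unadjusted 0.343). Il33 was lower in the treated tumours of MTO93, MTO140 and MTO54 and higher in those of MTO207, and the F test gave an adjusted p of 0.563 (unadjusted 0.0291). How many of all genes lay apart in this way within a line was not counted.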

How the results depend on the processing

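No paired analysis was possible because the replicate numbers only name tumours in accession order. The direction of the 5-line means turned for Anxa1 (-0.01 with array weights, -0.05 without MTO68), Clu (0.03 with array weights, 0.06 without MTO68) and Il33 (0.03 without MTO140), and the line omissions gave the same values in the permutation. MTO140 minus parental LAKTP for Clu turned to -0.16 with the second probe set, -0.15 after quantile normalization and -0.03 with all tumours. Clu in MTO68 stayed at -1.62 but was not called with the third probe set or array weights (adjusted p 0.442). The F test over control lines passed for Anxa1 after quantile normalization (0.0479) and with all tumours (0.0293), and for Clu with all tumours (0.00801). Genes called: between lines 10, with 0 under array weights, 3 without trend and 3 with the stricter filter; MTO68 312, with 13 under array weights, 147 after quantile normalization and 176 with the stricter filter; over 5 lines 0 (1238 at an unadjusted p under 0.05), with 116 under array weights, 55 after quantile normalization, 2 without MTO54 and 10 without MTO68; over control lines 436, with 174 under array weights, 929 after quantile normalization and 8080 with all tumours. Causes were not tested.

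Omitting 1 tumour at a time gave -0.06 to 0.34 for Anxa1, -0.37 to -0.14 for Clu and -0.34 to -0.12 for Il33 over 5 lines, -1.89 to -1.35 for Clu in MTO68, and turned direction for these: Anxa1 from -0.16 to 2.68 and Il33 from -0.22 to 1.05 in MTO68; Anxa1 from -0.26 to 0.01 in MTO140, from -0.55 to 0.22 in MTO54 and from -0.21 to 0.74 over LAKTP; Clu from -0.08 to 0.60 in MTO54; against parental LAKTP, Clu from -0.23 to 0.23 in MTO140 and from -0.23 to 0.46 in MTO54, and Il33 from -0.42 to 0.22 in MTO54; and Il33 from -0.26 to 1.01 in MTO68 minus MTO93. The neutrophil list median turned from -0.02 to 0.01 and the wider fetal-like one from 0.09 to -0.05 without MTO68 control replicate 2, an alternative chosen after seeing the data. Adjusted p-values between lines ran from 0.00555 to 0.82 for Anxa1, 0.0236 to 0.82 for Clu and 0.021 to 0.82 for Il33, and over control lines from 0.000264 to 0.208, 0.0435 to 0.341 and 0.0117 to 0.338. Counts ran from 2 to 2807 between lines, 40 to 8323 in MTO68, 0 to 43 over 5 lines and 125 to 7331 over control lines. Array signal near background limits Il33. The median of all genes over 5 lines was 0.001, and 0.029 or -0.004 under other scalings.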
